A study of Mus musculus with 12 samples.

Results

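The 4 control arrays of this study measured total RNA from mouse lungs collected whole at E14.5, a stage of active branching, and they are 4 of 12 arrays over 3 genotypes. They were chosen by their label, genotype Shh+/Cre: 1 Shh allele carries Cre and the other is intact, which is the state the mutants of the study, not described here, were built on. The Cre is driven from Shh, whose product marks the lung epithelium, so that epithelium carries the recombinase in the controls too. These lungs are therefore not wild type, and no lung without a Cre allele was analysed here. Litter, strain, sex, batch and scan date are absent from the labels, as is the number of embryos in a specimen, so the spread between arrays may be technical in part.

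At this stage the mouse lung is a branching tree of epithelial tubes inside a dividing mesenchyme. Distal tips, marked by Sox9 and Id2, receive Fgf10 from the mesenchyme and keep dividing, while the Sox2-positive stalks behind them become airways. Smooth muscle forms around the stalks, a vascular plexus surrounds the tips and a mesothelium covers the surface. Alveolar cells and the mature secretory and ciliated cells of the airways appear later.

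Affymetrix single-channel arrays gave 1 log2 value for each probe set and array. Every level below is such a value, and each array's 4 values are given in the order of the replicate numbers in the labels. Of 41345 probe sets, 23521 are paired with exactly 1 gene symbol, which gave 22180 genes when each gene was represented by its brightest probe set over the 4 arrays. The median signal of an array was 5.99 to 6.08. Across genes, any pair of these arrays had a Pearson correlation of 0.991 to 0.994, and 0 pairs held identical values. A signal depends on the probe's own affinity as well as on the amount of RNA, so a percentile here ranks a gene's signal among the 22180 genes and not its abundance. In whole lung, fewer cells of a type and less RNA per cell cannot be told apart. A single group has no contrast to test, so no p-value is given, and the number of arrays limits the precision of each SD.

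As a yardstick for a dim signal, the 1408 olfactory, vomeronasal and bitter taste receptor genes on the array were used, which the lung is not known for. Their median level was 3.52, and 95% of them lay at or below 5.89, called the sensory receptor level here. That level fell at the 38.6th percentile of all genes. Of all genes, 13623 had a mean above it, or 61.4%, and single arrays had 13323 to 14001 genes above it. Of the sensory receptor genes, 71 lay above it too, so a gene slightly above this level is not shown to be expressed. The top 25% of genes began at 7.99 and the top 10% at 9.06. Gene lists were read against these shares. The share of 61.4% includes the sensory receptor genes, 95% of which lie at or below the level by its definition. It is therefore lower than the share among the other genes.

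The defining markers of lung were bright on all 4 arrays, and those of the thyroid and thymus were not. Nkx2-1, the transcription factor that specifies lung and thyroid endoderm, had levels of 9.28, 9.46, 9.23 and 9.17, with a mean of 9.28 ± 0.124 (SD, n = 4) at the 92.1st percentile. Sftpc, the surfactant protein that marks lung epithelium, lay at 11.34 ± 0.414 (SD, n = 4), and Tbx4 and Tbx5, the T-box factors of the lung mesenchyme, at 9.84 and 10.83. The thyroid gene Tg, 5.95, lay close to the sensory receptor level, and the thyroid factor Pax8, 4.63, and the thymus factor Foxn1, 5.71, lay below it. Xist, the RNA of the inactive X chromosome, was bright on all 4 arrays, at 11.18, 11.15, 11.26 and 11.31. The 5 Y-linked genes measured were below the sensory receptor level: Eif2s3y had 4.48, 3.73, 4.15 and 3.98, and the brightest of them, Zfy2, averaged 4.30.

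The brightest genes overall belonged to respiration, translation and the cytoskeleton. Among the 15 highest means, 7 were encoded by the mitochondrial genome, led by ND4 at 13.41 and COX1 at 13.16. The translation factors Eif4a1, 12.86, and Eef1a1, 12.80, ribosomal proteins Rpl28, Rpl29 and Rpl21, the glycolytic enzyme Gapdh, 12.77, the tubulin Tubb5, 12.76, and the tetraspanin Cd81, 12.72, made up the others. Most of these repeated closely: Gapdh ranged over 0.0511 and Rpl21 over 0.0481 between arrays.

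Lists of cell type markers separated into a bright mesenchymal and vascular side and an epithelium whose regulators were bright. Most lists for late or foreign cell types were dimmer, but alveolar type 1, a late cell type, had a median at the 77.2nd percentile. Counting the lists of pathways, matrix and processes too, there were 44, holding 582 measured entries of 626. Of these 44, 19 had a median in the top 25%. The lung mesenchyme list was highest among cell types, with a median at the 96.6th percentile, followed by smooth muscle at 91.5, lung epithelial regulators at 86.3, endothelium at 86.0 and distal tip progenitors at 85.5. Lists of other organs had medians between the 32.3rd percentile for brain and 50.5th for heart muscle. With the sensory receptor level set at the 99th percentile of the sensory receptor genes, 6.78, 15 of the 44 lists had counts above it that moved by more than 1.5 times. Of the lung lists, proximal airway then had 5 genes above it, neuroendocrine 2, alveolar type 2 5, cartilage 6, macrophage and leukocyte 8, lymphoid 0, platelet 1 and neural 4. Of the other organs, heart muscle had 4, skeletal muscle 1, liver 1 and the other 4 lists 0. The counts given below for these lists hold only for the level of 5.89. Some genes sit in more than 1 list, such as Sftpc in the distal tip and alveolar type 2 lists and Sox9 in the distal tip and cartilage lists.

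**Figure D1:**
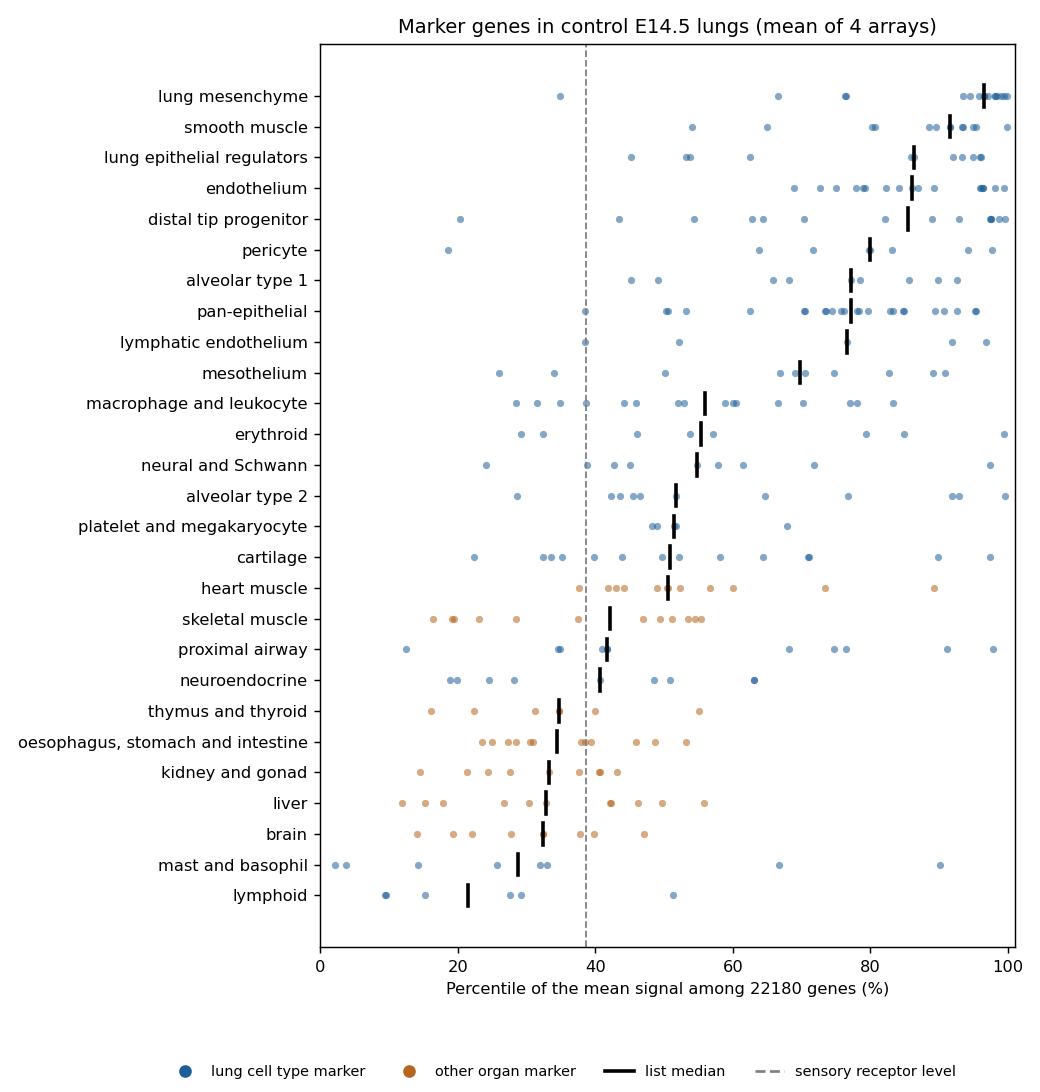
Percentile of each marker gene's mean signal over the 4 control arrays among all 22180 genes, 1 row per list of cell type (blue) or other organ (brown) markers, with points for genes, a bar for the list's median and the sensory receptor level as a dashed line. The mesenchyme median lies at 96.6, the brain median at 32.3 and the lymphoid median, the lowest, at 21.4.

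The pan-epithelial genes were clearly measured. Of 24, 23 were above the sensory receptor level and 14 were in the top 25%, with a median at the 77.1st percentile. Cdh1, the epithelial cadherin, had 9.63, 9.89, 9.75 and 9.69 by the brighter of its 2 probe sets, at the 95.3rd percentile, and lay at the 68.6th by their mean. Cldn6, a tight junction protein of embryonic epithelia, averaged 9.72 ± 0.104 (SD, n = 4) and Epcam, an epithelial adhesion molecule, 9.35 ± 0.0686 (SD, n = 4). The dimmest member was Ehf, an Ets factor, at 5.88.

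The transcription factors that set lung epithelial identity were mostly bright and repeated well. All 11 on the list were above the sensory receptor level and 7 were in the top 25%. Foxp1 lay at 9.89 ± 0.0359, Foxa1 at 9.86 ± 0.157, Foxp2 at 9.68 ± 0.194 and Foxa2 at 8.75 ± 0.107 (SD, n = 4 each). Foxa1 and Foxa2 are pioneer factors of endoderm, and Foxp1 and Foxp2 act in airway and distal epithelium. Hopx, which marks alveolar type 1 cells later, was the dimmest at 6.21.

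Distal tip genes ran from very bright to dim. Of 14, 13 were above the sensory receptor level and 8 were in the top 25%. Sox9, the tip progenitor factor, had 10.28, 10.13, 10.20 and 10.21, at the 97.5th percentile with an SD of 0.0628. Id2, an inhibitor of basic helix-loop-helix factors in the same cells, averaged 10.24, and Etv5, an Ets factor downstream of Fgf signalling, 10.22. Bmp4, a ligand made at the tip and in the mesenchyme, had 10.55, 10.82, 10.77 and 10.56. Shh itself, the ligand of the epithelium, was dim at 6.25, 6.22, 5.94 and 6.08. Its mean, 6.12, lay at the 43.5th percentile, only a little above the sensory receptor level on every array. Lin28b, an RNA-binding protein of early progenitors, was below that level at 4.94. The other members outside the top 25% were the Wnt ligand Wnt7b at 7.71, the Myc family factor Mycn at 7.37, the Fgf feedback inhibitor Spry2 at 7.27 and the Ets factor Etv4 at 6.74.

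**Figure D2:**
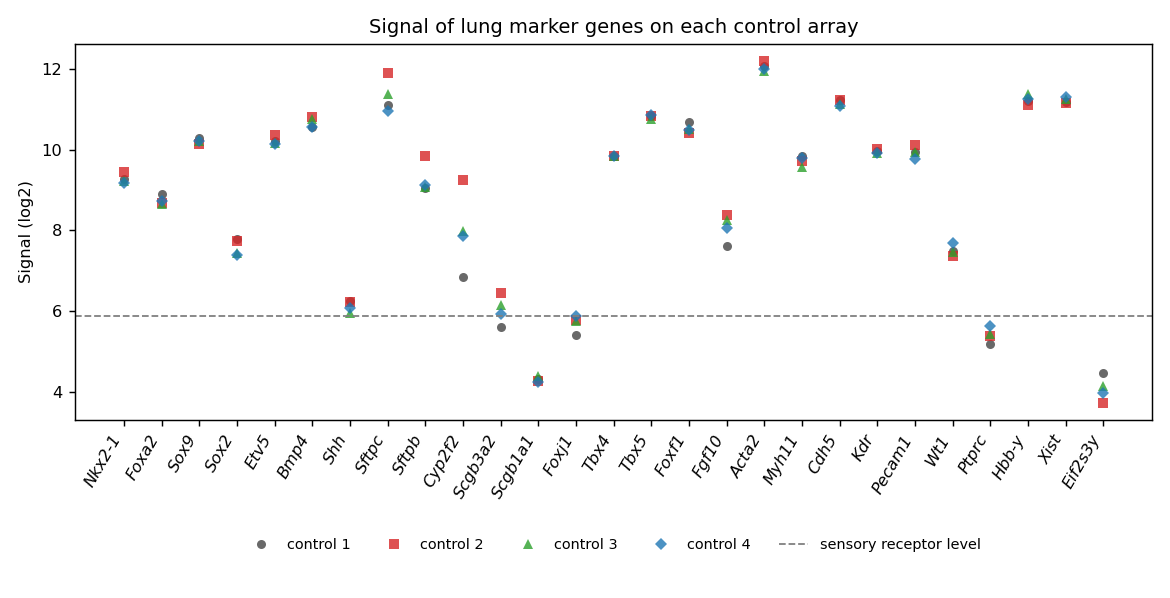
Log2 signal of the marker genes named in the text on each of the 4 control arrays, 1 symbol per array, with the sensory receptor level of 5.89 as a dashed line. Sox9, Bmp4 and Acta2 lie far above the line, Shh close to it and Scgb1a1 below it, and the 4 points of Cyp2f2 are the most spread.

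Proximal airway genes were split. Of 11, 8 were above the sensory receptor level, and the list's median was at the 41.7th percentile. Sox2, the stalk factor, had 7.79, 7.74, 7.43 and 7.38, with arrays 1 and 2 higher than arrays 3 and 4. Aldh1a7, an aldehyde dehydrogenase, was bright at 10.31, as was the cholecystokinin receptor Cckar at 9.19. Scgb1a1, the secretoglobin of mature club cells, was dim at 4.31, and Foxj1, the master factor of ciliated cells, lay at 5.40, 5.78, 5.75 and 5.88, at or under the sensory receptor level on all 4 arrays. The neuroendocrine list had 5 of 9 genes above that level and a median at the 40.7th percentile, led by the factor Insm1 at 7.28 and the ubiquitin hydrolase Uchl1 at 7.28.

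Surfactant genes ranged from very bright to dim, and several differed between arrays. Sftpc had 11.11, 11.91, 11.39 and 10.97, at the 99.5th percentile, and array 2 was highest. Sftpb, the surfactant protein needed to form the air-liquid film, had 9.05, 9.84, 9.08 and 9.13, with array 2 alone high. Sftpa1, a collectin of surfactant, had 7.26, 7.94, 7.30 and 7.02, while Sftpd, the other collectin, averaged 5.41 and was not above the sensory receptor level. Lamp3, a lamellar body protein, had 6.07, 6.72, 6.12 and 5.59. In all, 10 of 11 alveolar type 2 genes were above the sensory receptor level, 4 in the top 25%, and Muc1, an epithelial mucin, averaged 9.37. All 9 alveolar type 1 genes were above the sensory receptor level and 5 were in the top 25%, led by the scaffold Akap5 at 9.35, the tetraspan protein Emp2 at 9.05 and podoplanin, Pdpn, at 8.70. Outside the top 25% were Clic5 at 7.58, Rtkn2 at 7.45, Aqp5 at 6.43 and Hopx at 6.21. Which cells of the whole lung gave these signals was not tested, so the list does not show that alveolar type 1 cells were present.

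The gene with the largest spread among named genes above the sensory receptor level was Cyp2f2, a cytochrome P450 of club cells. It had 6.84, 9.24, 7.97 and 7.85, a 5.30-fold range with an SD of 0.986, array 2 highest and array 1 lowest. These values are of its brightest probe set, at the 74.7th percentile. By the mean of all its probe sets Cyp2f2 lay at the 60.2nd. The 250 bases before the RefSeq start sites (GRCm38.p6) of 3 epithelial genes that were highest on array 2 are printed here because the 3 genes share that highest array. Capitals mark the Nkx2-1 core motif CTCAAG and the forkhead motif TGTTTAC, searched on both strands, which do not overlap. Sftpb is at chr6:72304360-72304609 on the plus strand, Lamp3 at chr16:19706366-19706615 on the minus strand and Cyp2f2 at chr7:27119705-27119954 on the plus strand, each 5′ to 3′ along the gene.
Sftpb: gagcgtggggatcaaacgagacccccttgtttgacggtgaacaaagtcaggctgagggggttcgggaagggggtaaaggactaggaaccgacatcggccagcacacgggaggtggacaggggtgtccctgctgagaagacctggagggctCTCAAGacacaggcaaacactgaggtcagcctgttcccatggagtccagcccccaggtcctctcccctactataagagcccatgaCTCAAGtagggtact
Lamp3: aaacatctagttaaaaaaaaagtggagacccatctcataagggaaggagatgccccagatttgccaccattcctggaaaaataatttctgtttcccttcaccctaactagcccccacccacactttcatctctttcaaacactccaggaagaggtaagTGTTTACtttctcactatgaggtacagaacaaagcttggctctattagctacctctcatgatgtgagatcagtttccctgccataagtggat
Cyp2f2: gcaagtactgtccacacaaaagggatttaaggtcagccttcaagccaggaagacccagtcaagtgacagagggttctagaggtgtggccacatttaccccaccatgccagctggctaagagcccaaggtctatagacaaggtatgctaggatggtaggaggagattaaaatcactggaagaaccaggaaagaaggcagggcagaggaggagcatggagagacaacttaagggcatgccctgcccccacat
The Sftpb stretch holds 2 copies of CTCAAG, the Lamp3 stretch 1 copy of TGTTTAC, and the Cyp2f2 stretch neither. Of 27025 promoters of this length in RefSeq, 13.6% hold CTCAAG or its reverse and 3.09% hold TGTTTAC or its reverse, so a match is only a description of these letters.

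The mesenchyme gave some of the brightest and steadiest signals. Of 16 genes, 15 were above the sensory receptor level and 14 in the top 25%. Vimentin, Vim, the intermediate filament of mesenchyme, lay at 12.10 ± 0.0377 (SD, n = 4), and the fibrillar collagen gene Col1a1 at 11.28 ± 0.0391 (SD, n = 4). Tbx4 had 9.85, 9.83, 9.85 and 9.85, and its SD of 0.00877 was among the smallest of the named genes. Foxf1, the hedgehog-responsive forkhead factor of the lung mesenchyme, had 10.69, 10.42, 10.52 and 10.50. Tcf21, a factor of lung mesenchyme and later lipofibroblasts, averaged 9.60 and the receptor Pdgfra 10.11. Twist2 was the dimmest at 5.72.

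Fgf10, the mesenchymal ligand that draws out the buds, was variable by comparison. It had 7.60, 8.39, 8.27 and 8.06, with array 1 lowest, a mean of 8.08 at the 76.4th percentile and an SD of 0.346. Wnt2, a mesenchymal Wnt ligand, also averaged 8.08, with an SD of 0.0687.

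Contractile genes were present throughout. All 13 smooth muscle genes were above the sensory receptor level and 11 were in the top 25%. Acta2, smooth muscle actin, had 12.08, 12.19, 11.94 and 11.99, at the 99.8th percentile, and the myosin gene Myh11 averaged 9.74. Myocd, the coactivator of the smooth muscle programme, lay at 9.01. Pericyte genes were above the sensory receptor level in 7 of 8 cases, led by the receptor Pdgfrb at 10.28 and the adhesion molecule Mcam at 9.54, while Higd1b, a marker of mature lung pericytes, was at 4.82.

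Cartilage and mesothelial genes were mixed. Of 14 cartilage genes 10 were above the sensory receptor level, but the median was at the 50.9th percentile. The brightest was Sox9, shared with the tips. The cartilage collagen Col2a1 averaged 7.76, and the aggrecan gene Acan, 5.66, and matrilin Matn1, 5.06, were below the sensory receptor level. Of 10 mesothelial genes 8 were above it, led by the uroplakin Upk3b at 9.16 and the Wnt agonist Rspo1 at 8.98. Wt1, the mesothelial zinc finger factor, had 7.50, 7.36, 7.47 and 7.68, while Msln, 5.68, and Muc16, 5.27, genes of the mature mesothelium, were below the sensory receptor level.

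Endothelial genes were uniformly measured. All 17 were above the sensory receptor level and 15 were in the top 25%. VE-cadherin, Cdh5, had 11.22, 11.23, 11.12 and 11.09. The Tgf-beta coreceptor Eng averaged 10.39, the Vegf receptor Kdr 9.95 and the adhesion molecule Pecam1 9.94. Even the dimmest, the arterial factor Sox17, lay at 7.62. Among lymphatic genes, 4 of 5 were above the sensory receptor level; Lyve1, a hyaluronan receptor that macrophages also carry, averaged 10.03, and Prox1, the lymphatic master factor, 6.61.

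Among blood and immune genes, some red cell and myeloid genes were bright and most lymphoid genes were dim. Hbb-y, the embryonic beta-like globin of primitive red cells, lay at 11.24 ± 0.113 (SD, n = 4), at the 99.4th percentile, and the anion exchanger Slc4a1 at 8.27. Hba-x and Hbb-bh1, the other embryonic globins, averaged 6.92 and 6.71, and the adult globin genes on the list were not analysed here. Of 8 red cell genes measured, 6 were above the sensory receptor level and 3 in the top 25%. The red cell factors Klf1, 5.60, and Gata1, 5.44, were below the level. Of 16 macrophage and leukocyte genes 13 were above the sensory receptor level and 3 in the top 25%. Fcer1g, an Fc receptor chain, averaged 8.52, the complement gene C1qb 8.19 and Csf1r, the macrophage growth factor receptor, 7.49, but Ptprc, the pan-leukocyte CD45 gene, had 5.18, 5.37, 5.44 and 5.62 and was below the sensory receptor level on every array. Of 6 lymphoid genes 1 was above it, Nkg7 at 6.55. Of 8 mast cell genes 2 were, led by the receptor Kit at 9.07. All 5 platelet genes were above it and 0 were in the top 25%.

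Genes of neighbouring and distant organs were mostly outside the top 25%. Of 11 liver genes 5 were above the sensory receptor level and 0 in the top 25%, with albumin, Alb, at 5.62. For oesophagus, stomach and intestine the count was 4 of 12, and for brain 2 of 9, with 0 in the top 25% in both. Heart muscle genes were above it in 11 of 12 cases, against 61.4% of all genes. The exception was Myl2 at 5.84. Of the heart genes 1 was in the top 25%, the cardiac actin gene Actc1 at 8.99. Tnnt2 averaged 7.90 and Nkx2-5 7.11, and the atrial myosin gene Myl7 lay at 6.50 ± 0.458 (SD, n = 4). Skeletal muscle had 6 of 12 above the sensory receptor level and 0 in the top 25%. Of 9 neural and Schwann cell genes 8 were above it. The endothelin receptor Ednrb had 10.18, 10.19, 10.17 and 10.21 and was the only one in the top 25%, and Sox10, the neural crest factor, averaged 6.08. The part of heart, muscle or nerve tissue in the dissected lungs was not tested.

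Transcription factors were measured more often than the average gene. Of 676 in 23 families, 506 were above the sensory receptor level, or 74.9% against 61.4% of all genes. In the top 25% were 186, or 27.5%, close to the share of all genes. The highest were Snai2, a zinc finger factor of mesenchymal cells, at 11.80 ± 0.0682, and Nfib, a nuclear factor I protein needed for lung maturation, at 11.80 ± 0.0590 (SD, n = 4 each). Tbx5, 10.83, and Foxf1, 10.53, came next. Mef2a, 10.50, a muscle and vessel factor, the imprinted factor Plagl1, 10.50 (98.4th percentile, or 71.2nd by the mean of its 2 probe sets), the helix-loop-helix partner Tcf12, 10.36, the Smad partner Smad4, 10.35, Nfya, 10.33, of the CCAAT-binding complex, and Meis1, 10.24, a Hox cofactor, followed.

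Families differed in how much of them was measured. All 8 Smad genes and all 16 genes of the E2f, Nfy and Myb group, which act in signalling and in cell division, were above the sensory receptor level. Of 25 Ets genes 22 were, of 43 forkhead genes 33, and of 9 genes in the Gata group 8, led by Gata5 at 9.89 and Gata6 at 9.44. The Gata group is wider than Gata1 to Gata6 and also holds cofactors such as Zfpm1. Its exception was Gata1 at 5.44. In contrast, 2 of 9 paired box genes and 3 of 11 Pou genes, families best known from the nervous system, kidney and other organs, were above it. Pax7, the brightest paired box gene, lay at 6.30. No transcription factor above the sensory receptor level, 0 of 506, spread over more than 1 on the log2 scale (2-fold) between the 4 arrays. Of all genes above that level 0.514% did, so small a share that 0 of 506 is not set apart from it. Yy1, a zinc finger factor, averaged 9.03 ± 0.0710 (SD, n = 4).

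Hox genes, which give cells their position along the body axis, followed their clusters. Of 36 measured, 15 were above the sensory receptor level: 6 of 9 in the Hoxa cluster, 7 of 10 in Hoxb, 0 of 9 in Hoxc and 2 of 8 in Hoxd. Within Hoxa and Hoxb, all 5 and all 6 measured genes of paralog groups 1 to 6 were above it, and over all clusters 2 of 15 genes of groups 9 to 13 were. The peak in both clusters was paralog 5. Hoxa5, which is needed for lung morphogenesis, had 9.52, 9.41, 9.40 and 9.33, and Hoxb5 had 9.50, 9.23, 9.32 and 9.33. Hoxc5, of the same paralog group, averaged 4.66. Hoxb9 at 5.91 ± 0.180 and Hoxd8 at 6.04 ± 0.208 (SD, n = 4 each) were within 1 SD of the level.

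**Figure D3:**
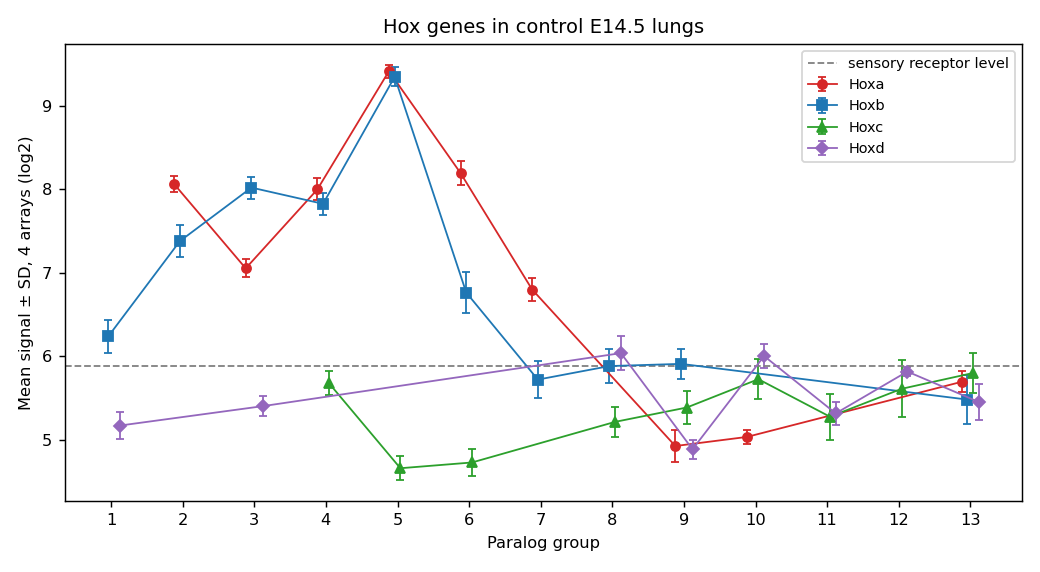
Mean log2 signal of 36 Hox genes over the 4 control arrays by paralog group, 1 line per cluster, with SD bars and the sensory receptor level of 5.89 as a line. Hoxa5 at 9.41 and Hoxb5 at 9.34 are the peaks, and all 9 Hoxc genes are below the line.

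The signalling receptors listed were brighter as a class than the ligands listed, but the classes do not hold matching families. The ligands include 72 cytokine and 36 chemokine genes, and the receptor class has no cytokine or chemokine receptor family. Receptors were therefore not compared with their own ligands. Of 112 receptor genes, 100 were above the sensory receptor level, or 89.3%, with a median at the 77.0th percentile. Of 292 ligand genes, 162 were, or 55.5%, with a median at the 43.0th percentile, against 61.4% of all genes above the level. In the cytokine family, 50 of 72 genes were not above the level. The brightest ligands were Igf2, the fetal growth factor, at 11.40 ± 0.0677, and Mif, a cytokine of many tissues, at 10.92 ± 0.0468 (SD, n = 4 each). Dlk1, an imprinted Notch-like ligand, averaged 10.13, Vegfd, a lymphatic and vascular growth factor, 10.05, Bmp1, a protease that processes collagens, 9.91, Bmp5 9.65 and Vegfa, the main vascular growth factor, 9.61. The brightest receptors were Bmpr2, the type II Bmp receptor, at 11.30, and Smo, the hedgehog signal transducer, at 11.17.

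Hedgehog genes showed a dim ligand and bright receiving machinery. Of 14, 13 were above the sensory receptor level and 8 in the top 25%. Beside Shh at 6.12, Ihh averaged 6.98 and Dhh 5.86. Smo had 11.43, 11.02, 11.15 and 11.09. Ptch1, the receptor and a target of the pathway, had 10.29, 10.23, 10.25 and 10.29, and Hhip, a target that binds the ligand, averaged 9.66. Gli3, 9.46, and Gli2, 8.71, the transcriptional effectors, were in the top 25%, and Gli1, the target gene that reports pathway activity, lay at 7.83. All of these lungs have 1 intact Shh copy.

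In the Fgf pathway, 18 of 19 genes were above the sensory receptor level. The receptor Fgfr2, which receives Fgf10 in the epithelium, had 9.31, 9.36, 9.43 and 9.42. Among feedback and target genes, Etv5 averaged 10.22 and Dusp6, a phosphatase of the Erk kinases, 9.54. The feedback inhibitors Spry1, 7.99, Spry4, 7.82, and Spry2, 7.27, and the factor Etv4, 6.74, were outside the top 25%. The ligands were lower: Fgf18 averaged 8.31, Fgf10 8.08, Fgf9, made by the mesothelium and epithelium, 6.94, and Fgf20 5.50. Dusp6 and Etv5 were each read by the brighter of 2 probe sets. By the mean of both, Dusp6 lay at the 59.7th percentile instead of the 94.1st and Etv5 at the 81.2nd instead of the 97.5th.

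All 27 Wnt genes were above the sensory receptor level, 12 in the top 25%. Beta-catenin, Ctnnb1, had 10.98, 10.98, 11.00 and 10.95, and the nuclear partner Lef1 averaged 8.95. Axin2, a feedback target of the pathway, lay at 8.58. Among ligands, Wnt2 averaged 8.08, Wnt7b, made by the epithelium, 7.71 and Wnt5a, a distal ligand, 6.98. Lgr5, a receptor of stem cells in other organs, was the dimmest at 6.41.

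In the Bmp and Tgf-beta list, 27 of 28 genes were above the sensory receptor level, and all 3 Tgf-beta ligands were in the top 25%, Tgfb2 highest at 9.55. The secreted Bmp antagonists were low, with Nog at 6.26, Chrd at 6.15 and Grem1 at 5.92. In the Notch list 15 of 16 were above it: Notch2 had 9.77, 9.73, 9.75 and 9.76, while the ligand Dll3 was at 5.12. Of 16 retinoic acid genes 12 were above it, with the synthetic enzyme Aldh1a2 at 8.48 and the degrading enzymes Cyp26b1 and Cyp26a1 at 6.78 and 5.21. All 13 genes of the Igf axis were above it and 11 in the top 25%, among them the imprinted adaptor Grb10 at 11.87 and the binding protein Igfbp5 at 10.80. Of 18 Pdgf and Vegf genes 17 were, with both Pdgf receptors above 10 and Pdgfa, the epithelial ligand, at 7.87.

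Matrix genes were a bright class. Of 157, 133 were above the sensory receptor level, or 84.7%, and 70 were in the top 25%. Biglycan, Bgn, a small proteoglycan, had 12.60, 12.66, 12.52 and 12.55 and was the brightest. Thrombospondin 1, Thbs1, averaged 11.43, fibronectin, Fn1, 11.39 ± 0.0280 (SD, n = 4) and Sparcl1 11.27. Mfap2, a microfibril component, 10.93, Sparc, a collagen-binding protein, 10.86, the crosslinking enzyme Lox, 10.82, and fibromodulin, Fmod, 10.84, were all in the top 10%. Elastin, Eln, which later forms the alveolar walls, was already at 9.71.

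Basement membrane genes were all above the sensory receptor level, 24 of 24, and their chains differed. Nidogen 1, Nid1, averaged 11.07 and the laminin chains Lamc1 and Lamb1 10.74 and 10.22. Lamb1 had 10.24, 10.21, 10.21 and 10.21. Of the type IV collagens, Col4a1 averaged 8.97 and Col4a2 8.72, while Col4a3, 6.33, and Col4a4, 6.75, chains of the mature alveolar membrane, were outside the top 25%. Lamc3 was the dimmest at 6.15. In the interstitial list 31 of 32 were above it and 26 in the top 25%, with vitronectin, Vtn, at 5.70 as the exception.

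Genes of cell division were as bright as those of the mesenchyme. All 19 cell cycle genes were in the top 25%, with a median at the 96.5th percentile. Mki67, a proliferation marker, had 10.98, 11.47, 11.41 and 11.09. Pcna, the replication clamp, lay at 10.86 ± 0.0124 and Ccna2, cyclin A2, at 10.82 ± 0.109 (SD, n = 4 each). The dimmest, the nucleotide reductase subunit Rrm2, lay at the 85.9th percentile by the brighter of its 2 probe sets and at the 43.1st by their mean. Of 9 p53 and apoptosis genes 8 were above the sensory receptor level and 2 in the top 25%, Ccng1 at 9.10 and Mdm2 at 8.63. Of 15 stress and immediate early genes 12 were above it. Jun had 9.50, 9.52, 9.18 and 9.19, arrays 1 and 2 above arrays 3 and 4, and the heat shock genes Hspa1a, 5.71, and Hspa1b, 5.61, were below it. Hypoxia genes were above it in 9 of 10 cases, led by Pgk1, a glycolytic enzyme, at 10.09, and Adm, adrenomedullin, was at 5.43.

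The genes of microRNA processing were measured completely, 11 of 11 above the sensory receptor level and 8 in the top 25%. The helicase Ddx5 averaged 11.86, the slicing Argonaute Ago2 9.79, and Dicer1, the enzyme that cuts microRNA precursors, 8.81 ± 0.165 (SD, n = 4), with 9.02, 8.85, 8.73 and 8.63. Ago4 was dim but steady at 6.19 ± 0.00812 (SD, n = 4). Among let-7 target and oncofetal genes, Plagl1 averaged 10.50, Igf2bp3 9.93 and Hmga2 8.45, and Lin28a and Lin28b were at 6.27 and 4.94.

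Promoter sequence differed across the range of signal. RefSeq promoters were found for 16918 of the 22180 genes. In the 250 bases before the start, the median number of CpG pairs was 18 in the brightest 25% of genes, 15 in the next, 6 in the third and 2 in the dimmest, or 3 in the dimmest without the sensory receptor genes. TATAAA, read in a window 45 to 16 bases before the start on the gene's strand, was found in 1.02%, 1.43%, 3.58% and 5.21% of these 4 groups, and in 2.75% of all genes matched. These are descriptions of the genes on the array, and the 4 groups were cut by signal, which also depends on probes.

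Replicates of these lungs were close. The median SD over 4 arrays was 0.132 for all genes and 0.113 for genes above the sensory receptor level, and the median gene ranged over 1.23-fold between the highest and lowest array. The SD fell with signal, from a median of 0.178 in the dimmest 25% to 0.0962 in the brightest. Of all genes, 256 ranged over more than 2-fold, or 1.15%, and 160 of these were in the dimmest 25%. Over 3 arrays the count was 128 without array 1, 136 without array 2 and 153 without array 4. Above the sensory receptor level, 70 of 13623 did, or 0.514%, and over 3 arrays 27 did without array 1, 33 without array 2, 67 without array 3 and 50 without array 4. Among the classes, each small for a share of 0.514%, these included 0 transcription factors, 0 ligands, 0 receptors and 1 matrix gene. That gene was Aspn, a small leucine-rich proteoglycan, with 6.58, 8.12, 7.25 and 6.95.

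**Figure D4:**
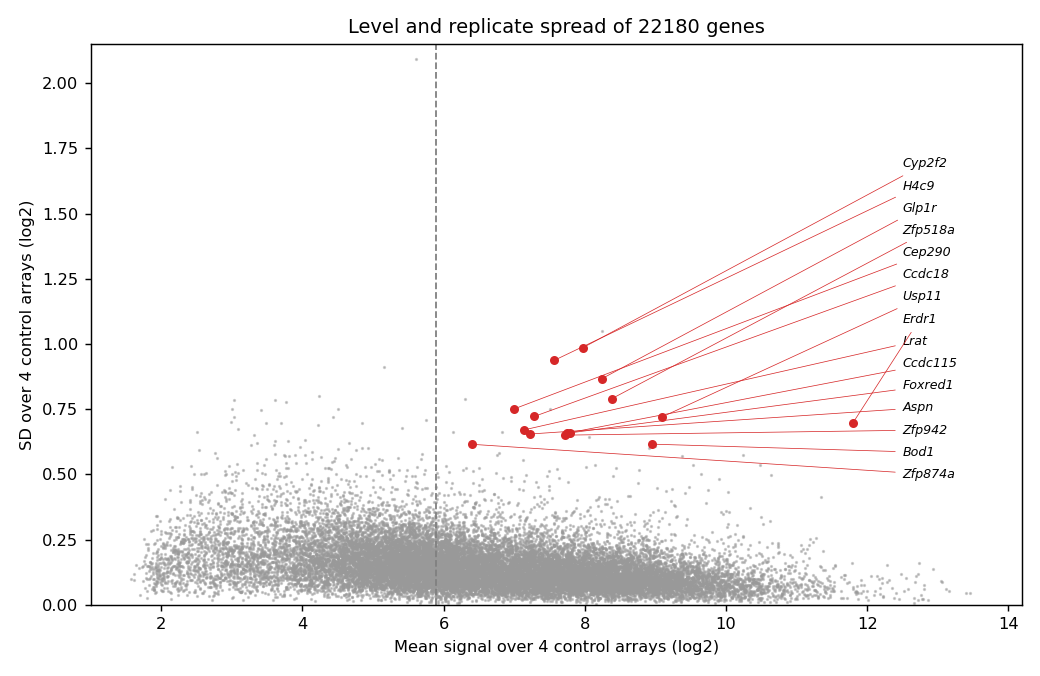
SD over the 4 control arrays against mean log2 signal for every gene, with the 15 named for the largest SDs in red and the sensory receptor level of 5.89 as a line. The median SD is 0.132 over all genes, and Cyp2f2, H4c9 and Glp1r stand highest among named genes above the level.

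The variable genes were shared out unevenly among the arrays. Of the 70, array 1 was the farthest from the other 3 and low in 30, and array 2 was farthest and high in 24. Array 4 was low in 9, and the other 7 were spread over the remaining cases. The 30 low on array 1 included genes of the centrosome and kinetochore: Cep290, a ciliary and centrosomal protein, had 5.89, 7.50, 7.39 and 7.22, the kinetochore protein Cenpf had 8.01, 9.21, 9.22 and 9.20, and the kinetochore scaffold Knl1 had 8.54, 9.76, 9.63 and 9.61. Zfp518a, a zinc finger protein, had 7.20, 8.83, 8.77 and 8.72. On these genes arrays 2, 3 and 4 lay close together.

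Array 2 was high in genes of several kinds. Usp11, a deubiquitinase, had 8.82, 10.16, 8.72 and 8.66, and Foxred1, a mitochondrial assembly factor, 7.52, 8.72, 7.36 and 7.37. Bod1, a chromosome orientation protein, had 8.68, 9.87, 8.69 and 8.56. Besides these it was high in Cyp2f2, Lamp3 and Cbr2, a carbonyl reductase of club cells, which had 6.53, 7.87, 7.15 and 6.95. Cpa3, a mast cell protease, had 7.36, 8.15, 7.11 and 7.34. On array 4 the histone gene H4c9 was low, with 8.29, 7.82, 7.97 and 6.19, and so was Glp1r, the receptor of glucagon-like peptide, with 8.79, 9.16, 7.70 and 7.33, although array 3 was low there too.

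Whole lists moved a little between arrays. For each list the mean deviation of its members above the sensory receptor level from their own means was taken on each array. The alveolar type 2 list moved most among the epithelial lists, by -0.16, 0.40, -0.04 and -0.20 on the log2 scale, and 9 of 10 members were highest on array 2. Members were chosen by a mean that includes array 2, which can favour dim genes that are high there. With 1 array left out, 9 to 10 alveolar type 2 genes were above the level. The list's shift on array 2 was then 0.34 to 0.39 where another array was left out. With the level at the 99th percentile of the sensory receptor genes, 5 were above it, and their shift was not tested. Alveolar type 1 genes moved by 0.19 on array 2, with 7 of 9 highest there, endothelial genes by 0.16, with 15 of 17, and pan-epithelial genes by 0.13, with 16 of 23. The proximal airway list moved by 0.21 on array 2, but 2 of its 8 members were highest there, and without Cyp2f2 it moved by 0.05 on array 2 and by 0.08 on array 3. Over all genes above the sensory receptor level, 34.9% were highest on array 2 and 35.6% on array 1, against 12.9% and 16.5% on arrays 3 and 4, and the mean deviation of all of them on array 2 was 0.0229.

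The direction was not the same for every tissue. Smooth muscle genes were highest on array 1, by 0.10, with 9 of 13 members highest there, and mesothelial genes by 0.13. Of the 44 lists, 20 were highest on array 2 and 13 on array 1, and 19 were lowest on array 4. Single genes leaned the same way: 37.3% of all genes above the sensory receptor level were lowest on array 4. In the top 25% of genes, 42.7% were highest on array 2 and 43.2% on array 1. Whether the counts of lists differ from these shares was not tested. Why the arrays differ was not tested.

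**Figure D5:**
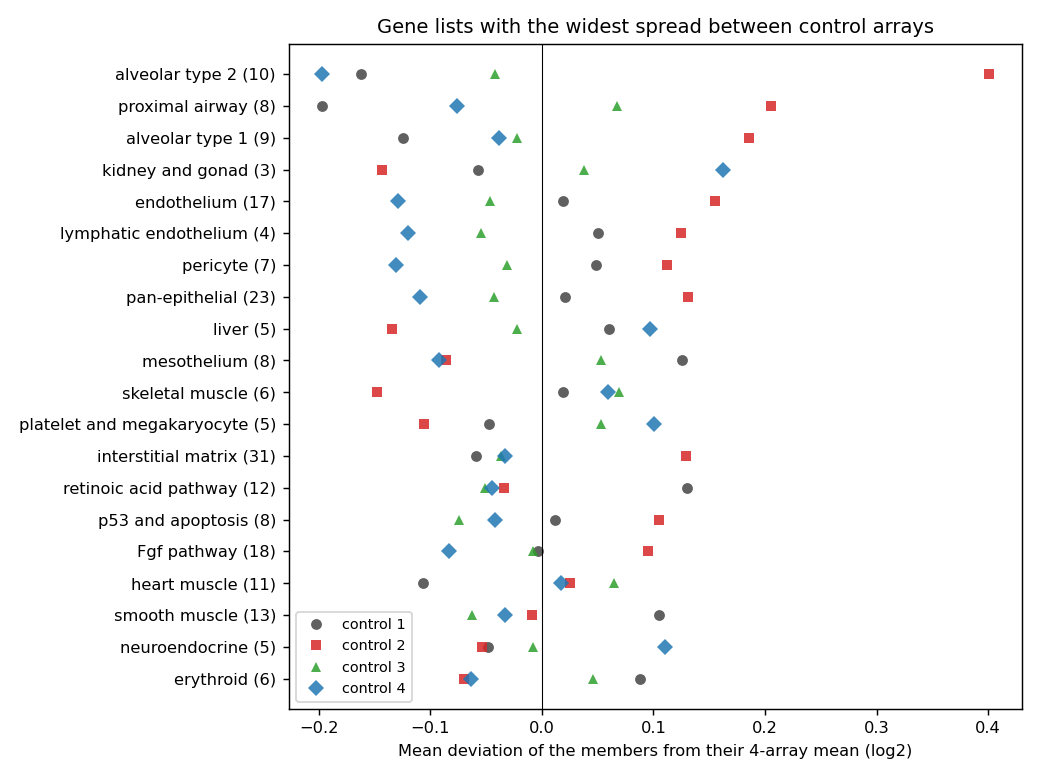
Mean deviation of each list's genes above the sensory receptor level from their own 4-array means, in log2 units, on each control array, for the 20 lists with the widest spread among those with at least 3 genes above the level; the number of such genes is in parentheses. The alveolar type 2 list is at 0.40 on array 2 and -0.20 on array 4, and the smooth muscle list at 0.10 on array 1.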

How the data were processed

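The deposited table holds 1 log2 value per probe set and array, normalised by the authors before deposit. How probes were summarised and arrays normalised, with which software and on which design, is not given in the sources used here; the range of the values gave base 2. Per the labels' protocols, RNA was extracted with Trizol, treated with DNase and checked on a Bioanalyser. The 4 control columns were read by their titles, and 0 columns were left unmapped.

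From these values, probe sets with 1 symbol in the platform annotation were kept (1814 with several and 16010 with none were left out), and the brightest over the 4 arrays stood for a gene. Means, SDs and percentiles over 22180 genes were computed in pandas 2.3.3 under Python 3.11.15. No filter or pseudocount was used, and no test apart from Dixon's criterion for the flagged results. The steps were tested on simulated data.

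The genes, lists and families were chosen with earlier results of these data known. The text names the 15 highest means, the 3 highest and the lowest gene of each list, the 12 highest of each class, the 15 largest SDs above the sensory receptor level and set key genes, 236 in all. Predicted, Riken and small RNA genes were left out of the lists by level and SD. Other list members are given as examples chosen after their values were seen. Alternatives covered normalisation, the choice of probe set, the sensory receptor level and each array left out.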

Additional observations from a re-analysis of the deposited data

Results flagged for a closer look

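Among the 236 named genes and 39 lists tested, 21 genes and 4 lists had 1 array whose gap to its nearest neighbour was large for the range of the 4 arrays. Chance alone flags about 1 in 20 groups that were not picked by their values. Here 15 of the genes were named for the largest SDs on the same arrays, and genes and lists overlap. The rate of 1 in 20 therefore does not hold for this set, and no cause is weighed here. Array 1 was the odd one in 12 cases, array 2 in 9, array 3 in 1 and array 4 in 3.

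Array 1 was low in the mitochondrial genes CYTB at 13.02, ND5 at 12.91 and ND2 at 12.53, in the zinc finger genes Zfp518a at 7.20 and Zfp942 at 6.75, and in the lung factor Nfib at 11.71. Array 1 was high in the laminin chain Lamb1 at 10.24, the p53 target Ccng1 at 9.20, the heat shock gene Hspa1b at 5.88 and the embryonic myosin Myh3 at 5.30. Lamb1 differed by little in size, with the others at 10.21.

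Array 2 was high in Usp11 at 10.16, Foxred1 at 8.72, Bod1 at 9.87, the surfactant gene Sftpb at 9.84 and the factor Tcf12 at 10.56. It was low in the ribosomal gene Rpl28 at 12.72 and the platelet chemokine Pf4 at 6.15. Array 3 was high in Aldh1a7 at 10.49. Array 4 was high in the red cell factor Gata1 at 5.75, the liver gene Serpina1a at 4.59 and the retinoic acid enzyme Cyp26a1 at 5.59, whose means lie below the sensory receptor level.

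Of the lists, the hedgehog pathway shifted by 0.0756 and the retinoic acid pathway by 0.130 on array 1, and the Igf axis by 0.0704 and the interstitial matrix by 0.129 on array 2, all on the log2 scale and relative to each gene's own mean.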

How the results depend on the processing

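The count of genes above the sensory receptor level, 13623, stayed within 1.5 times under every alternative run, from 9977 with that level set at the 99th percentile of the sensory receptor genes to 16037 at the 90th. The count of genes with a range over 1 on the log2 scale fell from 256 to 70 when only genes above the sensory receptor level were counted, and lay between 128 and 199 with 1 array left out, where a range over 3 arrays cannot exceed that over 4. With the level at the 99th percentile, 97 ligand genes were above it in place of 162, and the counts of 15 of 44 lists moved by more than 1.5 times, as given with the lists. Lists with a median in the top 25% numbered 19 after quantile normalisation and 17 when a gene's probe sets were averaged, against 19. With that average, 8 of the 144 named genes in the top 25% left it: Rrm2, Dusp6, Hif1a, Cdh1, Plagl1, Slc2a1, Bod1 and Fgf10. The largest fall was in Rrm2, from the 85.9th to the 43.1st percentile, and Hif1a fell from the 93.1st to the 60.6th. The number of lists highest on array 2 was 17 after quantile normalisation, against 20, lay between 19 and 26 with another array left out and has no value without array 2. The proximal airway list without Cyp2f2 was tried after seeing the data. No paired analysis was possible because the report covers 1 group and tests no contrast. The 4 arrays, an unstated normalisation and signals that depend on the probe limit what a level can show, and a gene near 5.89 may or may not be expressed.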

Other observations

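Rps13, a ribosomal protein gene, had the largest SD of all genes, 2.09, with 3.46, 4.19, 7.56 and 7.24. Arrays 1 and 2 were low and arrays 3 and 4 high, and its mean, 5.61, lay below the sensory receptor level. Other ribosomal protein genes also varied: Rpl3 had 10.85, 9.82, 9.68 and 10.61, and Rps3a1 had 11.11, 10.51, 10.92 and 9.99.

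Vmn1r233, a vomeronasal receptor gene by its annotation, averaged 12.14, with 12.07, 12.03, 12.24 and 12.24, while the next brightest sensory receptor gene, Olfr484, averaged 7.93. Erdr1 had 11.14, 11.33, 12.06 and 12.65, a 2.85-fold range. Mgp, matrix Gla protein, had 9.96, 9.97, 10.41 and 9.24. These genes were chosen after their values were seen.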
